A study of Homo sapiens with 4 samples.

Results

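The protocadherin genes were followed through every probe of the array whose gene symbol in the platform annotation begins with PCDH. They were 70 of the 19304 symbols of the array, read by 100 of its 48701 probes. Of these probes, 75 (57 symbols) read the clustered genes, with 23 probes for PCDHA, 19 for PCDHB and 33 for PCDHG, and 25 (13 symbols) read the non-clustered genes. RNA levels were read with Illumina bead arrays in 4 stably transfected lines made from HEK293 cells, which derive from human embryonic kidney. AIRE1 and AIRE2 were clone-derived lines expressing the autoimmune regulator AIRE. The AIRE-D312A line expressed AIRE with a mutation in its first PHD finger, and the control line NC expressed yellow fluorescent protein. Every transgene was driven by the immediate-early promoter of human cytomegalovirus, and each line gave 3 arrays from independent experiments. Every transgene but AIRE is represented by 1 line and AIRE by 2, so p-values cover only the spread between experiments with a line, and the transgene and anything else that sets a line apart cannot be told apart.

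Protocadherins are cadherin-type adhesion proteins that are best known from the nervous system. The clustered genes lie in tandem on chromosome 5 in an alpha, a beta and a gamma group. Each alpha or gamma exon has its own promoter and is spliced to constant exons shared by its group, whereas each beta gene is a single exon. In neurons, a few of these promoters are chosen per cell, with the help of the DNA-binding protein CTCF and cohesin and under the control of DNA methylation, and the resulting surface code lets a neuron tell its own branches from those of others. The non-clustered protocadherins, mostly of the delta group, are separate genes on several chromosomes with roles in cell adhesion and movement. AIRE is a nuclear protein of the thymus, where it turns on genes of other tissues, and its first PHD finger binds the unmethylated tail of histone H3.

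AIRE was read in the lines labelled with it. The AIRE probe ILMN_1791236 read 8.66 to 9.03 on the log2 scale in AIRE1, 8.05 to 8.78 in AIRE2 and 8.24 to 8.44 in AIRE-D312A, against 4.36 to 4.55 in NC, where it was detected on 0 of 3 arrays. A second AIRE probe was detected on 0 of 12 arrays. Mean intensity lay between 246 and 324 per array. A probe was called detected at a detection p under 0.01, which 15823 to 17288 probes reached per array. For AIRE-D312A replicate 3 the deposited detection p-values equalled those of AIRE1 replicate 3, and detection there was called by a limit predicted from its own intensities. Of the HEK293 marker genes, 5 of 6 on the array were detected on all 12 arrays and PAX2 on none. Their levels differed between the lines: of 6 probes limma called 0 higher and 3 lower in AIRE1 against NC, 4 higher and 1 lower in AIRE2, and 2 higher and 1 lower in AIRE-D312A. Between AIRE1 and AIRE2, 3 of these 6 probes were called. Of all tested probes 7.07%, 8.23% and 3.16% were called against NC in AIRE1, AIRE2 and AIRE-D312A, and 1.76% between the clones. Leukocyte markers (2 genes) were detected on no array. Of 3 endothelial markers KDR was detected on 2 arrays and PECAM1 and CDH5 on none. Of 2 liver markers APOA1 was detected on 8 arrays and ALB on none. Of 6 neuronal markers SYT1 was detected on all 12 arrays, SNAP25 on 11, SYP on 10 and STMN2 on 9, and RBFOX3 and DCX on none. Of 4 fibroblast markers COL1A1 and PDGFRA were detected on all 12 arrays, DCN on 10 and LUM on 5. No neuronal, fibroblast or liver marker was called against NC by limma without the block. With it STMN2 and DCN were called higher in both clones, LUM higher and PDGFRA lower in AIRE1, and APOA1 higher in AIRE2 and AIRE-D312A. The part of these markers in the protocadherin differences was not tested.

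Most protocadherin probes gave no detectable signal in these cells. A probe was tested when it was detected on all 3 arrays of at least 1 line, and 16 protocadherin probes met this, against 16264 of the 48701 probes of the array (33.4%). Of the 75 clustered probes, 5 (6.67%) passed, namely PCDHAC2, PCDHB19P, PCDHGB5, PCDHGB6 and PCDHGC3, and 65 were detected on 0 arrays. Of the 25 non-clustered probes, 11 (44%) passed, and 13 were detected on 0 arrays. These 11 read PCDH7 and PCDH10 (3 probes each), PCDH9, PCDH17, PCDH18, PCDH19 and PCDH20, which lie on chromosomes 4, 13 and X. In bulk RNA, a transcript present in fewer cells and less of it per cell cannot be told apart. No probe of the non-clustered genes PCDH1, PCDH8, PCDH11X, PCDH11Y, PCDH12 or PCDH15 was detected on any array.

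**Figure D1:**
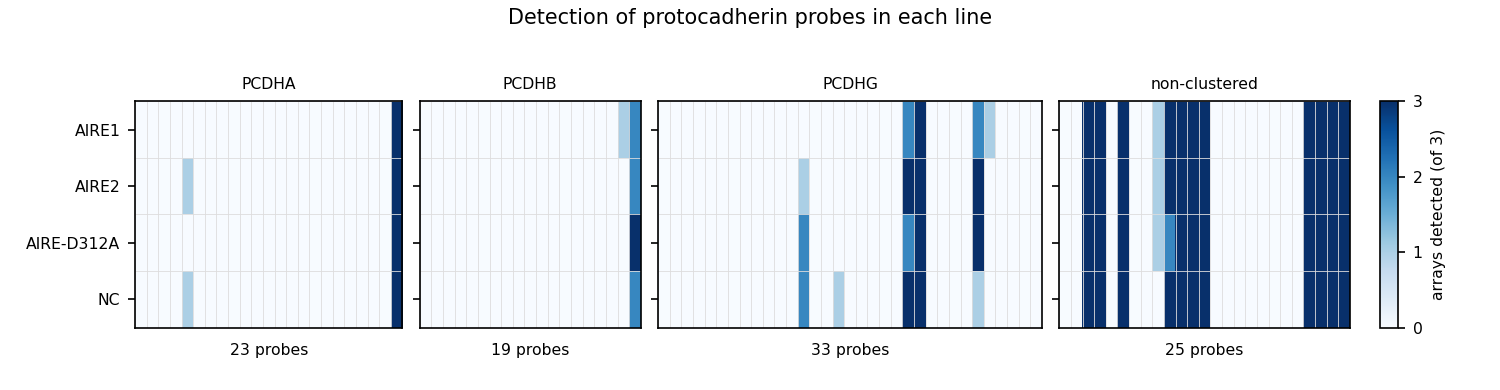
Number of arrays, of 3 per line, on which each of the 100 protocadherin probes was detected at p under 0.01, with the lines as rows and the probes as columns within their group. Dark columns, detected on all 3 arrays, are few among the 75 clustered probes and make up 11 of the 25 non-clustered ones.

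The remaining 6 probes were detected on some arrays without passing. PCDHGA9 was detected on 5 arrays, 1 of AIRE2, 2 of AIRE-D312A and 2 of NC. A further PCDH9 probe was detected on 3 arrays, 1 of each AIRE line and 0 of NC. PCDHA2 was detected on 1 array of AIRE2 and 1 of NC, PCDHGA11 on 1 of NC, and PCDHB18 and a second PCDHGC3 probe on 1 of AIRE1 each. Among the 84 probes that did not pass, 13 detections were seen in 1008 probe and array pairs. A detection p of 0.01 gives 10.1 over as many pairs of unselected probes without signal. These probes were picked for failing the filter, and their detections gather in PCDHGA9 and PCDH9. The comparison therefore does not decide whether the detections are signal. The exon read by each probe was not analysed here. A probe in a constant exon would read the whole alpha or gamma group, and probes of near-identical relatives (the PCDHB genes, the PCDHGA and PCDHGB genes, and PCDH11X with PCDH11Y) may read more than 1 gene, so single clustered genes are uncertain.

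Promoter sequences were set beside detection, since each clustered exon starts from a promoter of its own. RefSeq windows on GRCh38.p14 were found for 58 of the 70 symbols, 67 windows in all because some genes have several starts, and for 9 of the 12 symbols with a tested probe. PCDH10, PCDH20 and PCDHB19P had none. The 250 bases before each start were read. CpG dinucleotides, the sites of DNA methylation, numbered 11 to 18 (median 14.5) in the 6 windows of PCDHAC2, PCDHGB5, PCDHGB6 and PCDHGC3, the detected clustered genes. They numbered 2 to 22 (median 5.5) in the 46 windows of the 43 clustered genes that did not pass. Of those 46 windows 7 held at least 11, the median over all 35116 windows of the table, among them PCDHAC1 with 18 and PCDHGC4 with 13 and 22. Windows of a gene with several starts overlap and are not independent. The median CpG count was 5 over all PCDHA, 6 over all PCDHB and 7 over all PCDHG windows. The windows of detected clustered genes are of PCDHG genes and PCDHAC2 only, so group and detection are not separated in the CpG counts. A clustered gene is called detected here if it had a tested probe. Other probes of PCDHAC2 (ILMN_1659773 and ILMN_1737444) and of PCDHGC3 (ILMN_1656955) were detected on 0 arrays, and PCDHGC3 probe ILMN_1675428 on 1. Whether the promoters of the detected genes were in use was not tested. Among the non-clustered genes the counts ran from 8 to 21 (median 10) in 5 windows of tested genes and from 1 to 14 (median 6.5) in 10 windows of genes that did not pass. A few windows are printed in full to show this range, 5′ to 3′ on the plus strand of chromosome 5 for PCDHGB6 (detected) and PCDHGA4 (not detected), on the minus strand of chromosome X for PCDH19 and on the plus strand of chromosome 4 for PCDH7, with each CpG in capitals.
PCDHGB6 (chr5:141407771-141408020): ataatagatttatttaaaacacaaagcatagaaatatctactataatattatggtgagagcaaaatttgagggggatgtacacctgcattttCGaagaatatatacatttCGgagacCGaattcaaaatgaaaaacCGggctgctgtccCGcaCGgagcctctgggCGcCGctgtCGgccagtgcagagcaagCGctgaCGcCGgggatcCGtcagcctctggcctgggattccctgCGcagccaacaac
PCDHGA4 (chr5:141354771-141355020): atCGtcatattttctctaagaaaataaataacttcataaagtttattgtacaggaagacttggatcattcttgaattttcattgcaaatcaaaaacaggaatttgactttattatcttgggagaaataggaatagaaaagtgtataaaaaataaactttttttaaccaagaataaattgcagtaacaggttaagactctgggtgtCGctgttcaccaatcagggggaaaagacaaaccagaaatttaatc
PCDH19 (chrX:100410274-100410523): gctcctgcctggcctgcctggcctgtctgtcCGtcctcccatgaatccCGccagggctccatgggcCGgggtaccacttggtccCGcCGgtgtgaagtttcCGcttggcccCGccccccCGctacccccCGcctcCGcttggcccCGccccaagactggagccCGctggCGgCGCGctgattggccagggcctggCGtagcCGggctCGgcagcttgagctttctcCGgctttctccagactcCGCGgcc
PCDH7 (chr4:30720119-30720368): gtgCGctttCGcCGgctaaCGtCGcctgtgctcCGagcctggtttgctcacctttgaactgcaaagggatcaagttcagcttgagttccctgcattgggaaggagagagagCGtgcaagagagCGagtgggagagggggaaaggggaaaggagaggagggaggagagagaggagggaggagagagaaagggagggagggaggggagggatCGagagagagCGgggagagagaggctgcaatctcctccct
The PCDHGB6 window held 14 CpG and the PCDHGA4 window 2, while PCDH19 held 21 and PCDH7 held 10.

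**Figure D2:**
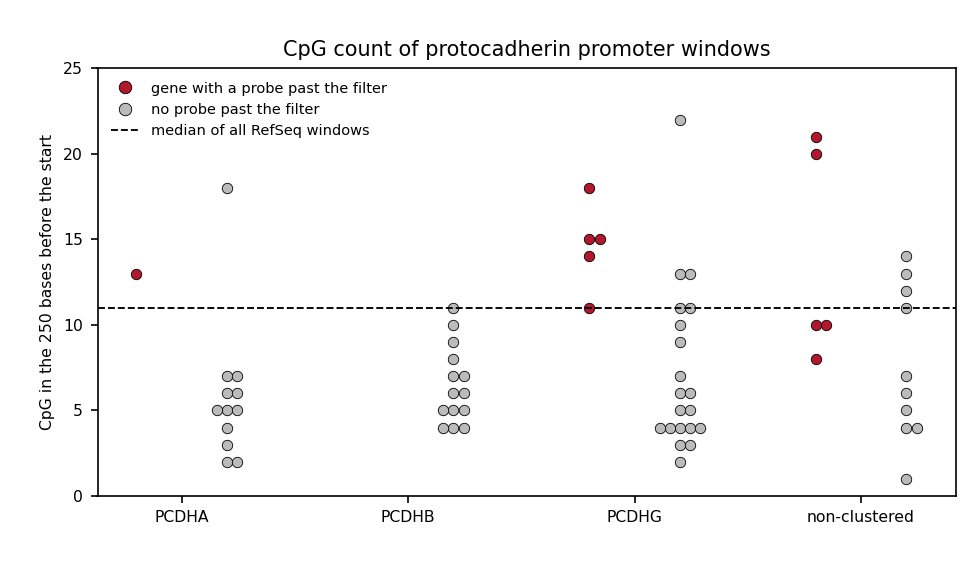
CpG count in the 250 bases before each RefSeq start (vertical axis) of the protocadherin genes by group, in red for genes with a tested probe and in grey for the others. The dashed line is the median of all windows, 11, and the 6 red windows of the clustered genes lie at or above it.

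Short elements recur among the clustered promoters. The letters CGCTGT, searched on both strands, occurred in 29 of 52 clustered windows (55.8%), 7 of 13 for PCDHA, 1 of 14 for PCDHB and 21 of 25 for PCDHG. They occurred in 1 of 15 non-clustered windows, that of PCDH15, and in 8.83% of all windows. The letters GGTGGCGCT occurred in 12 of 14 PCDHB windows, in 0 of the other protocadherin windows and in 0.41% of all windows. Both were chosen after the promoters were read, and in PCDHB3 they overlap in the letters they share. The 38 or 41 bases around the element are printed for the detected genes PCDHAC2, PCDHGB5, PCDHGB6 and PCDHGC3 and then for genes that did not pass, all on the plus strand of chromosome 5 and 5′ to 3′, with the element in capitals.
PCDHAC2 (chr5:140966365-140966402): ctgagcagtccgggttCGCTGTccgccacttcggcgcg
PCDHGB5 (chr5:141397863-141397900): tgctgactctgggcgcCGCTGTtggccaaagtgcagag
PCDHGB6 (chr5:141407924-141407961): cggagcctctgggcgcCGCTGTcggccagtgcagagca
PCDHGC3 (chr5:141475880-141475917): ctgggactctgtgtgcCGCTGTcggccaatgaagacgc
PCDHA1 (chr5:140786086-140786123): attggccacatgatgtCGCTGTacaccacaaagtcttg
PCDHA10 (chr5:140855841-140855878): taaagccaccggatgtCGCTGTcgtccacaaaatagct
PCDHGA4 (chr5:141354960-141354997): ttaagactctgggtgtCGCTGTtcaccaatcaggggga
PCDHGA10 (chr5:141412931-141412968): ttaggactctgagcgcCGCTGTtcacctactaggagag
PCDHB9 (chr5:141187069-141187109): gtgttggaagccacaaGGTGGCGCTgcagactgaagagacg
PCDHB13 (chr5:141213860-141213900): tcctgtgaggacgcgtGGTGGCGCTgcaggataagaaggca
All 6 windows of the 4 detected clustered genes held CGCTGT, and so did 23 of the 46 windows of clustered genes that did not pass. The PCDHGB5 windows overlap and hold the same element, and a PCDHGB6 window holds the letters on the other strand only. The 6 windows are of PCDHG genes and PCDHAC2, while the 46 include all 14 of PCDHB, where 1 held the letters. Group and detection are thus not separated in these counts. A match is a run of letters and not a mapped binding site.

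The first comparison set each AIRE line against the YFP control. Values are normalised log2 intensities, differences are log2 differences with their SE from limma over n = 3 arrays per line, and a probe was called at a Benjamini-Hochberg adjusted p under 0.05 over all 16264 tested probes. Among the 16 protocadherin probes limma called 1 in AIRE1 (lower), 1 in AIRE2 (higher) and 0 in AIRE-D312A. Among all tested probes 7.07% were called for AIRE1 and 8.23% for AIRE2. The share was 3.16% for AIRE-D312A, so without the block 1 call or none among 16 is near the background. With the replicate number added as a block, limma called 7, 4 and 2 protocadherin probes, beside 19.9%, 23.7% and 13.9% of all tested probes. The AIRE1 count of 7 among 16 was above its background share and the other counts near theirs. Those 7 include all 3 tested PCDH7 probes, which are not independent. At an unadjusted p under 0.05 the counts were 4, 1 and 2. The share of all tested probes at that threshold is not given here. These counts, and those at the same threshold below, are thus not set against a background.

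PCDH19, an X-linked delta protocadherin that is mutated in an inherited epilepsy, was the probe called in AIRE2. Its probe ILMN_1805132 read 7.13, 6.78 and 6.89 in AIRE2, against 5.36, 5.65 and 5.33 in NC. All 3 AIRE2 arrays lay above all 9 others. AIRE1 read 5.70, 5.40 and 5.76, and AIRE-D312A read 5.35, 5.21 and 5.61, both overlapping NC. The AIRE2 difference from NC was 1.49 ± 0.15 (2.80-fold, limma adjusted p = 7.28e-05), and within the 3 experiments it was 1.77, 1.13 and 1.56. Over the 21 alternatives, including the authors' deposited table with the offset of 16 added, it stayed between 0.95 and 1.66. The highest limma adjusted p was 0.000714 over the alternatives with a test. The difference of AIRE1 from NC was 0.17 ± 0.15 (95% interval -0.15 to 0.49, adjusted p = 0.61), and that of AIRE-D312A was -0.06 ± 0.15 (-0.38 to 0.26, adjusted p = 0.93). In the authors' deposited table PCDH19 had an intensity of 105.7 in AIRE2, while AIRE1 had 32.8, AIRE-D312A 24.3 and NC 24.5.

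PCDH7, a delta protocadherin first described in brain and heart, was the gene called in AIRE1, through 1 of its 3 tested probes. Probe ILMN_1670383 read 5.49, 5.35 and 5.74 in AIRE1, against 6.55, 6.52 and 6.56 in NC. It read 6.40, 6.29 and 6.29 in AIRE2 and 6.19, 6.21 and 6.18 in AIRE-D312A. All 3 AIRE1 arrays were the lowest of the 12, and the arrays of AIRE2 and AIRE-D312A lay between AIRE1 and NC without touching either. The AIRE1 difference from NC was -1.02 ± 0.10 (2.03-fold lower, limma adjusted p = 8.9e-05), with -1.06, -1.17 and -0.82 in the 3 experiments. For AIRE2 it was -0.21 ± 0.10 (adjusted p = 0.25), and for AIRE-D312A -0.35 ± 0.10 (adjusted p = 0.097, and 0.023 with the replicate block).

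The other PCDH7 probes gave smaller differences with wider errors. Probe ILMN_1766668 read 5.10, 5.28 and 5.19 in AIRE1, against 5.52, 5.90 and 5.65 in NC, with no overlap. Its difference was -0.50 ± 0.15 (limma adjusted p = 0.062), and it passed once the block was added (adjusted p = 0.0028) or when AIRE2 replicate 1 (0.027) or AIRE2 replicate 2 (0.025) was left out. In AIRE2 it stood at -0.29 ± 0.15 from NC (adjusted p = 0.28, and 0.043 with the block). Probe ILMN_1710544 read 7.59, 7.95 and 7.29 in AIRE1, against 8.15, 8.87 and 7.71 in NC. These groups overlapped, with a difference of -0.63 ± 0.32 (adjusted p = 0.33, and 0.0075 with the replicate block). In all 3 probes AIRE1 was below NC in each of the 3 experiments. For AIRE-D312A, ILMN_1766668 stood at 0.00 ± 0.15 and ILMN_1710544 at -0.04 ± 0.32 from NC, apart from the -0.35 of ILMN_1670383. One further PCDH7 probe was detected on 0 arrays. Over the 12 arrays the 3 tested PCDH7 probes correlated with Pearson's r of 0.39, 0.60 and 0.84 between pairs, a description over arrays that share lines and experiments.

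**Figure D3:**
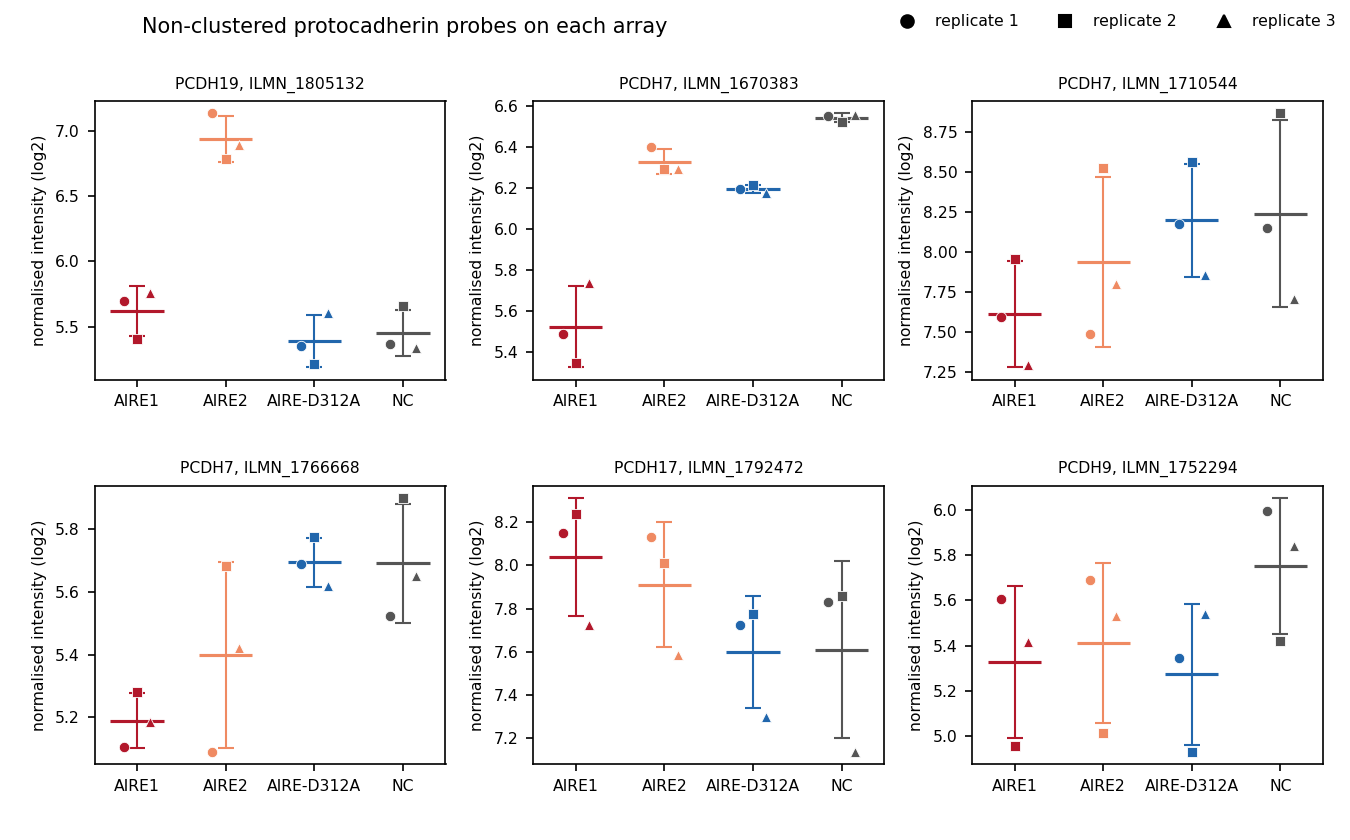
Normalised log2 intensity on each array for the tested probes of PCDH19, PCDH7, PCDH17 and PCDH9, by line, with the replicate number as the marker, a bar at the mean and error bars of 1 SD (n = 3). AIRE2 stands above the other lines in PCDH19, AIRE1 stands below them in PCDH7 probe ILMN_1670383, and replicate 3 of PCDH17 and replicate 2 of PCDH9 are the lowest array of their line in all 4 lines.

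In PCDH17 and PCDH9 the experiment showed in every line. PCDH17, a delta protocadherin of developing brain circuits, read 8.15, 8.24 and 7.73 in AIRE1 and 8.13, 8.01 and 7.59 in AIRE2. It read 7.72, 7.77 and 7.30 in AIRE-D312A, against 7.83, 7.86 and 7.14 in NC. Replicate 3 was the lowest array in each line, and all groups overlapped. Its difference from NC was 0.43 ± 0.22 in AIRE1 and 0.30 ± 0.22 in AIRE2, not called without the block (limma adjusted p = 0.34 and 0.51) and called with it (0.00304 and 0.0197). In the authors' deposited table, with the offset of 16 added, the AIRE1 difference was -0.0016. For AIRE-D312A it was -0.01 ± 0.22 (adjusted p = 0.99, and 0.95 with the block).

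PCDH9, a delta protocadherin of neurons, read 5.61, 4.96 and 5.42 in AIRE1 and 5.69, 5.01 and 5.53 in AIRE2. It read 5.35, 4.93 and 5.54 in AIRE-D312A, against 6.0, 5.42 and 5.84 in NC. Replicate 2 was the lowest array in each line. Its differences from NC were -0.43, -0.34 and -0.48 (SE 0.23 each), below 0 in all 3 experiments for each AIRE line. They were not called without the block (limma adjusted p = 0.36, 0.46 and 0.38) and were called with it (0.0042, 0.013 and 0.0031). The NC arrays enter all 3 comparisons, so their agreement in sign is not independent.

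The other non-clustered probes were not called against NC without the block. PCDH10, a delta protocadherin whose promoter is often methylated in tumours, gave differences in AIRE1 of -0.27 ± 0.12, -0.26 ± 0.12 and -0.10 ± 0.13 over its 3 probes. The first, ILMN_1688500, read 7.33, 7.32 and 7.36 in AIRE1, against 7.61, 7.47 and 7.74 in NC, without overlap, and was called with the block alone (limma adjusted p = 0.24, and 0.038 with the block). That probe correlated with the second PCDH10 probe over the arrays (r = 0.91) and ran against the third (r = -0.34). PCDH18 lay within -0.15 to -0.06 of NC in the 3 lines and PCDH20 within -0.21 to -0.05, with SE of 0.22 and 0.15.

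Among the clustered genes limma called 0 of 5 probes in each of the 3 comparisons with NC, and at an unadjusted p under 0.05 stood 1 of 5 probes in AIRE1 and AIRE-D312A each, and 0 in AIRE2. The gamma gene PCDHGB5 read 4.60, 4.88 and 4.87 in AIRE1, against 5.03, 5.09 and 5.34 in NC. The groups did not overlap, and the difference of -0.37 ± 0.12 was called with the block alone (adjusted p = 0.10, and 0.035 with the block). PCDHGC3, a gamma gene of the C type, read 5.19, 5.27 and 5.21 in AIRE-D312A, against 4.79, 5.04 and 4.82 in NC. These did not overlap either, with a difference of 0.34 ± 0.11 (adjusted p = 0.16, and 0.058 with the block). It was detected on 3 arrays of AIRE-D312A and 1 of NC.

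The alpha gene PCDHAC2, also of the C type, stood at -0.33 ± 0.17, -0.17 ± 0.17 and -0.12 ± 0.17 from NC in AIRE1, AIRE2 and AIRE-D312A. The gamma gene PCDHGB6 stood at -0.21 ± 0.11, 0.04 ± 0.11 and 0.02 ± 0.11. The pseudogene PCDHB19P stood at -0.03 ± 0.17, -0.02 ± 0.17 and 0.03 ± 0.17. These values lie near the detection limit, where the offset added to the intensities makes a fold change smaller.

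**Figure D4:**
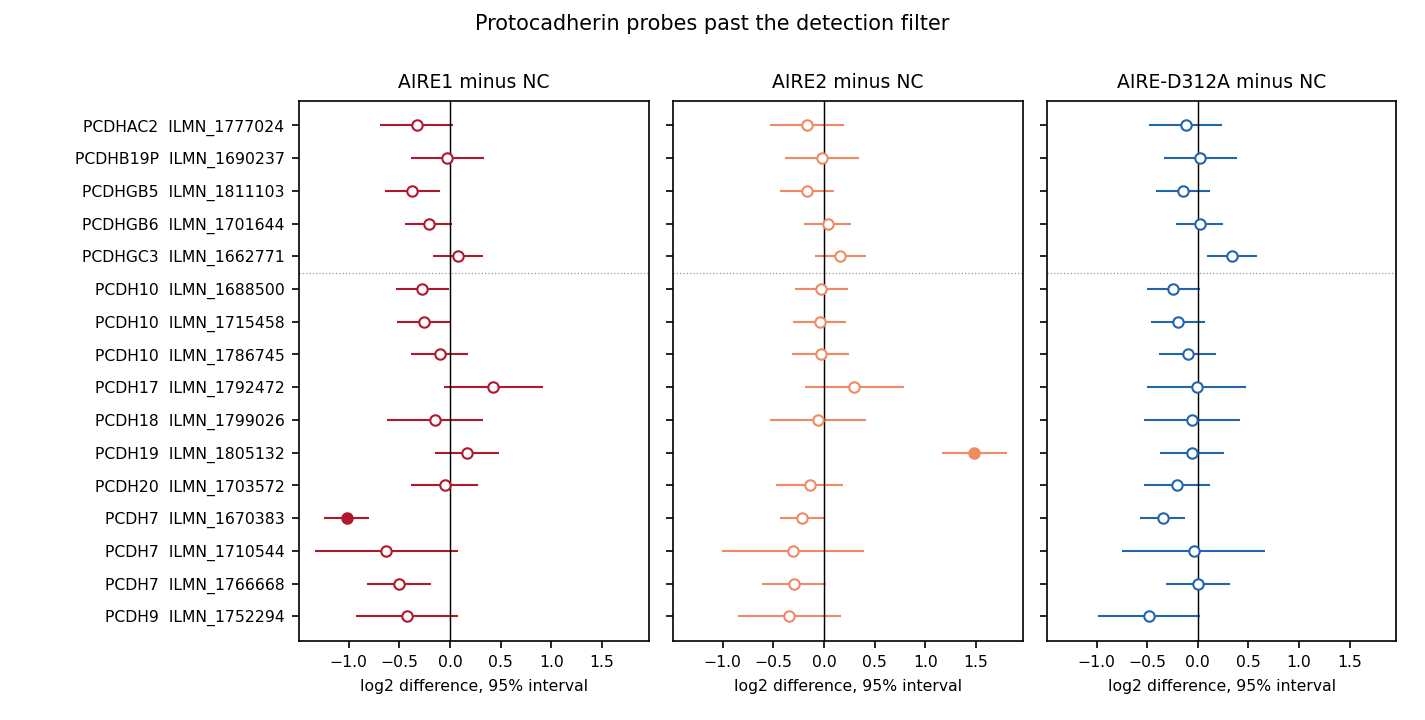
Log2 difference of each AIRE line from NC (horizontal axis, with 95% intervals) for the 16 tested protocadherin probes, the 5 clustered ones above the dotted line. Filled points were called at an adjusted p under 0.05, PCDH7 probe ILMN_1670383 in AIRE1 and PCDH19 in AIRE2.

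The clustered and the non-clustered probes were set side by side by their medians. The median difference from NC in AIRE1 was -0.21 over the 5 clustered and -0.26 over the 11 non-clustered probes, against -0.01 over all tested probes. In AIRE2 it was -0.02 and -0.06, against -0.02, and in AIRE-D312A 0.02 and -0.10, against 0.00. In AIRE1, 13 of the 16 probes lay below NC. When arrays were centred on their medians instead of quantile-normalised, the AIRE1 medians were 0.01 and -0.05, on a scale where the median of all tested probes was 0.13.

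The AIRE clones were next compared with the mutant line. Against AIRE-D312A limma called 1 of 16 protocadherin probes in AIRE1 and 1 in AIRE2, beside 1.72% and 1.75% of all tested probes. With the block it called 4 and 2, beside 8.00% and 13.1%. PCDH19 was 1.55 ± 0.15 higher in AIRE2 than in AIRE-D312A (limma adjusted p = 0.000221) and 0.23 ± 0.15 higher in AIRE1, which was not called (adjusted p = 0.70). PCDH7 probe ILMN_1670383 was at -0.67 ± 0.10 in AIRE1 against AIRE-D312A (adjusted p = 0.0053, but 0.15 with median centring) and at 0.13 ± 0.10 in AIRE2 (adjusted p = 0.63).

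With the block PCDH17 was called higher than AIRE-D312A in both clones, by 0.44 in AIRE1 (adjusted p = 0.00598, without the block 0.54) and by 0.31 in AIRE2 (0.027, without the block 0.61). The other PCDH7 probes were called lower in AIRE1 with the block, ILMN_1766668 at -0.50 (0.0063) and ILMN_1710544 at -0.59 (0.022), and not without it (0.14 and 0.60). The clustered genes gave 0 calls of 5 with or without the block in both comparisons, and 1 of 5 in AIRE1 and 0 of 5 in AIRE2 had an unadjusted p under 0.05.

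The clones also differed from each other. Between AIRE1 and AIRE2 limma called 2 of 16 protocadherin probes, beside 1.76% of all tested probes, and the same number with the block, beside 11.1%. PCDH19 was at -1.32 ± 0.15 in AIRE1 against AIRE2 (adjusted p = 0.000883), with -1.44, -1.38 and -1.14 in the 3 experiments. PCDH7 probe ILMN_1670383 was at -0.80 ± 0.10 (adjusted p = 0.0019, but 0.063 with median centring), with -0.91, -0.95 and -0.56. The PCDH19 call against NC in AIRE2 and the PCDH7 call in AIRE1 thus each went with a difference between the clones in a direct test. The same AIRE2 or AIRE1 arrays enter both comparisons, so the second call is not independent of the first. The clustered genes gave 0 calls of 5 here as well, with 1 of 5 at an unadjusted p under 0.05.

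Genes that act on the clustered promoters were looked at as a group, among them CTCF, the cohesin subunits, the chromatin protein SMCHD1 and the DNA methyltransferases. Over 20 tested probes of 18 genes limma called 0 in AIRE1, AIRE2 and AIRE-D312A against NC, with 3, 1 and 1 at an unadjusted p under 0.05 and 3, 1 and 1 called lower with the block. Of all tested probes 7.07%, 8.23% and 3.16% were called without the block, and 19.9%, 23.7% and 13.9% with it. CTCF stood at 0.16 ± 0.17 in AIRE1 and 0.16 ± 0.17 in AIRE2, and SMCHD1 at -0.17 ± 0.15 and 0.02 ± 0.15. NIPBL, the cohesin loader, stood at -0.46 ± 0.16 and -0.57 ± 0.22 in AIRE1 over its 2 probes (limma adjusted p = 0.11 and 0.17, and 0.0033 and 0.0086 with the block). The cohesin subunit gene SMC1A stood at -0.56 ± 0.24 in AIRE2 (adjusted p = 0.20, and 0.00099 with the block). The median difference of the group lay between -0.01 and 0.02 in the 3 comparisons.

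Partners and processing enzymes of protocadherins gave few calls, 1 higher and 1 lower of 28 probes in AIRE1, 2 lower in AIRE2 and 1 lower in AIRE-D312A. Of all tested probes, 4.43% were called higher and 2.64% lower for AIRE1. The shares were 5.11% and 3.12% for AIRE2, and for AIRE-D312A 2.15% and 1.01%. FYN, a Src-family kinase downstream of protocadherin alpha, was lower than NC in both clones. It stood at -0.43 ± 0.10 in AIRE1 (limma adjusted p = 0.019) and -0.41 ± 0.10 in AIRE2 (adjusted p = 0.022). In AIRE-D312A it stood at -0.18 ± 0.10, not called. Set directly against the mutant line, AIRE1 differed by -0.25 and AIRE2 by -0.23, not called with or without the block. A second FYN probe stood at -0.35 ± 0.33 in each clone and was not called without the block.

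Of 21 probes of other cadherin superfamily genes, limma called 3 higher and 3 lower in AIRE1, 3 higher and 2 lower in AIRE2, and 2 higher and 0 lower in AIRE-D312A. The shares of all tested probes called in either direction were 7.07%, 8.23% and 3.16%. CDH12, a classical cadherin of brain, was detected on 0 NC arrays and on all 3 arrays of each AIRE line. Its differences from NC were 1.94, 1.38 and 1.84 in AIRE1, AIRE2 and AIRE-D312A (SE 0.15 each, limma adjusted p = 1.43e-05, 0.000146 and 3.28e-05). As lower bounds on the fold, these were at least 2.63-fold, 1.79-fold and 2.46-fold. CDH11, a cadherin of mesenchymal cells, was detected on 0 arrays of NC and AIRE-D312A, on 3 of AIRE1 and on 2 of AIRE2. It stood at 1.01 ± 0.22 from NC in AIRE1 and 0.97 ± 0.22 in AIRE2 (limma adjusted p = 0.0169 and 0.0202). The bounds were at least 1.22-fold and 1.18-fold. Set against AIRE-D312A, CDH11 was 0.88 higher in AIRE1 and 0.83 higher in AIRE2. These were called with the block alone (limma adjusted p = 0.084 and 0.10, and 0.0078 and 0.0090 with the block). FAT4, a giant cadherin of planar polarity, fell by 0.58 in AIRE1 and 0.75 in AIRE2 (SE 0.16 each, adjusted p = 0.048 and 0.012). The mutant line AIRE-D312A gave a FAT4 difference from NC of -0.62 ± 0.16. This was called with the block alone (limma adjusted p = 0.060, and 0.00035 with the block). Set directly against the mutant line, AIRE1 differed by 0.04 and AIRE2 by -0.13, not called with or without the block. A bound sets the brighter line's mean against the higher of the NC value and the lowest detected signal of each NC array. Here and below, a probe with a bound passed the filter only through lines where it was high. Its adjusted p is thus not independent support, and it belongs to the log2 difference and not to the bound.

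The chromosomal neighbours of the cluster were read in the same way. Of 43 probes of 41 genes, the 20 nearest tested genes on each side and TAF7 between the clusters, limma called 3 higher and 1 lower in AIRE1, 3 higher in AIRE2 and 2 higher in AIRE-D312A. With the block limma called 6 higher and 4 lower for AIRE1 and 5 higher and 1 lower for AIRE2. For AIRE-D312A it called 15 and 0, where the median was 0.23 against 0.00 over all tested probes. Among all tested probes 19.9%, 23.7% and 13.9% were called with the block in either direction, and without it 7.07%, 8.23% and 3.16%. The membrane protein gene CYSTM1 rose by 0.41 ± 0.10 in both clones (adjusted p = 0.0295 in AIRE1 and 0.0268 in AIRE2) and by 0.61 ± 0.10 in AIRE-D312A (0.0058). PPP2R2B, a neuronal regulatory subunit of the phosphatase PP2A, was detected on 3 arrays of AIRE1, 2 of AIRE2 and 3 of AIRE-D312A, against 0 of NC. It was higher by at least 1.25-fold in AIRE1, by 1.04-fold in AIRE2, and by 1.23-fold in AIRE-D312A (adjusted p = 0.000429, 0.0035 and 0.0012). TAF7 stood at 0.28 ± 0.09, 0.34 ± 0.09 and 0.38 ± 0.09 in AIRE1, AIRE2 and AIRE-D312A (adjusted p = 0.10, 0.046 and 0.054).

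**Figure D5:**
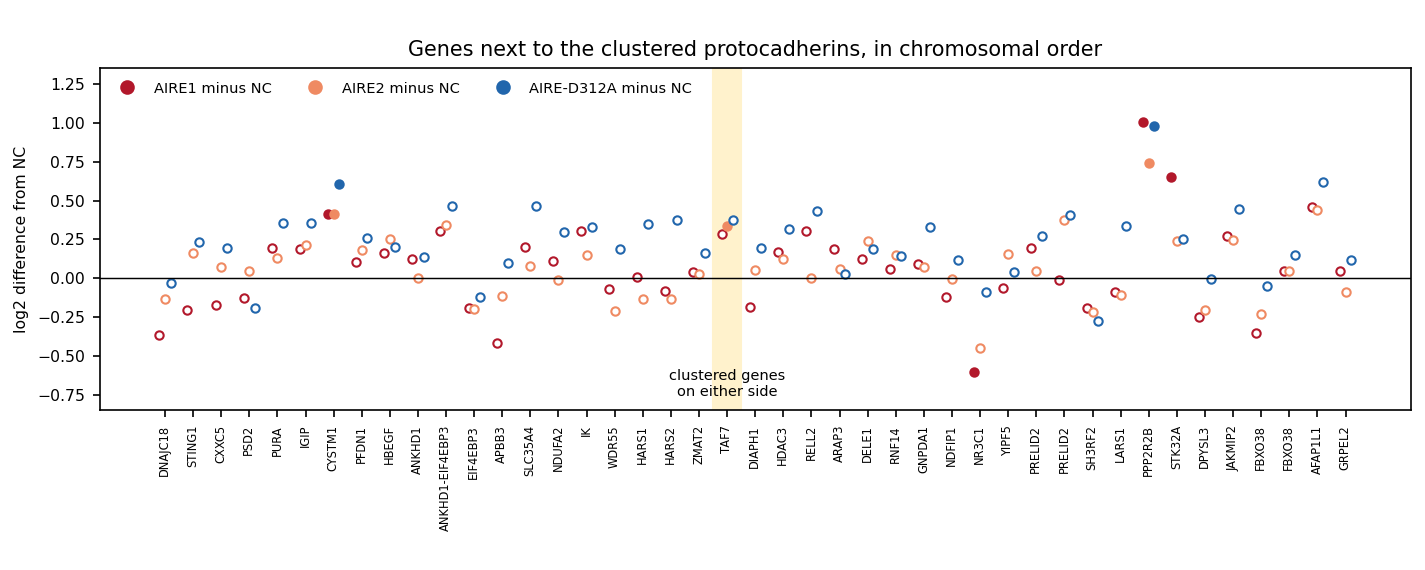
Log2 difference from NC of each AIRE line (vertical axis) for the 43 tested probes of the genes next to the clustered protocadherins, in chromosomal order, with TAF7 shaded between the clusters. Filled points were called at an adjusted p under 0.05; PPP2R2B and CYSTM1 were called in all 3 lines.

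The nearest tested genes were also read around PCDH19 and PCDH7, a choice made after the protocadherin values were seen. The tested genes on either side of PCDH19 on the X chromosome are DIAPH2, a formin, and TNMD, a tendon glycoprotein gene. TNMD was detected on 0 arrays of NC and AIRE-D312A and on 3 of each clone. It stood at 0.84 ± 0.13 from NC in AIRE1 and 1.56 ± 0.13 in AIRE2 (limma adjusted p = 0.0019 and 2.36e-05). The untested bounds were at least 1.29-fold and 2.13-fold. DIAPH2 was called lower in all 3 AIRE lines, at -0.68 ± 0.11 in AIRE1 and -0.50 ± 0.11 in AIRE2, with -0.47 ± 0.11 for AIRE-D312A (adjusted p = 0.00299, 0.0172 and 0.0437). Over 21 probes of the 20 nearest tested genes, limma called 2 higher and 1 lower in AIRE1 against NC, 2 and 3 in AIRE2, and 1 and 3 in AIRE-D312A. Among them TAF7L was detected on 3 arrays of AIRE2 and on 0 of the other lines, higher by at least 1.15-fold in AIRE2. Its limma adjusted p of 0.0021 belongs to the log2 difference and not to this bound. TNMD and TAF7L passed the filter only through lines where they were high. KLHL4 was lower in AIRE2, at -1.94 ± 0.19 and -1.66 ± 0.12 for its 2 probes, and in AIRE-D312A it was detected on 0 arrays. Over 25 probes of the 20 nearest tested genes of PCDH7, limma called 3 higher in each clone and 2 higher in AIRE-D312A against NC, with 0 lower in each line. For the neighbours of both genes the background is 7.07%, 8.23% and 3.16% of all tested probes called in AIRE1, AIRE2 and AIRE-D312A. Beside PCDH7 on chromosome 4, STIM2 stood at -0.44 ± 0.14 in AIRE1 (adjusted p = 0.087) and the ARAP2 probes at -0.24 ± 0.15 and -0.20 ± 0.16 (adjusted p = 0.45 and 0.55). The part of chromosomal neighbourhood in the PCDH19 and PCDH7 differences was not tested.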

How the data were processed

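RNA of 4 HEK293 lines was hybridised to 12 Illumina bead arrays, 3 per line. Per the labels' protocols, labelled cRNA was made from 250 ng of total RNA, and the submitters' processing notes name BeadStudio 3.1.3.0. The authors deposited, per the file headers, an average intensity per probe on a linear scale, neither background-corrected nor normalised between arrays, and a detection p-value for each. Their further table of 1 intensity per probe and line (column medians 3.73 to 4.12, scaling not given in the sources used here) served as an alternative, on a log2 scale with values below 0 set to 0 and the same offset added. Intensities were corrected by normexp with negative-control parameters inferred from the detection p-values and an offset of 16, quantile-normalised and log2-transformed (limma 3.58.1, R 4.3.3). Because the offset is added, fold changes of dim probes are understated.

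For the AIRE-D312A replicate 3 array, whose detection p column was not used, the limit was predicted from the 40th percentile of its intensities. On the other 11 arrays this prediction left 98.8 to 99.9% of detection calls as they were. A probe entered the test if each of the 3 arrays of some line had a detection p under 0.01, and these 16264 probes went into a limma fit with a mean per line, checked on simulated data, and the 6 contrasts were adjusted by Benjamini-Hochberg. Platform annotation gave 1 symbol for 24782 probes and none for 23919.

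The replicate numbers, taken from the same-numbered array files, pair the arrays. After the mean of each line was taken away, arrays correlated at 0.31 to 0.83 over 18 pairs of the same number, and at -0.73 to 0.51 over 36 pairs of different numbers. Slide was not used here, since no file names it. Promoter windows came from RefSeq on GRCh38.p14. Alternatives were other background, offset, normalisation and filter settings, the replicate block, 1 probe per gene, each array left out in turn, the authors' table and, chosen after seeing the data, the arrays without replicate 2.

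All protocadherin probes are accounted for and those past the filter named. Array values are given for probes called in any contrast and, chosen after their values were seen, for probes called with the block and for PCDHGC3. From the other lists the text names genes with calls of 1 sign in both clones, and CTCF, SMCHD1, NIPBL, SMC1A, TAF7, the cell type markers and the neighbours of PCDH19 and PCDH7 were added. The members and lists were chosen with earlier results of these data known. The number of arrays limits the precision.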

Additional observations from a re-analysis of the deposited data

Results flagged for a closer look

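A direct test called 2 protocadherin probes between the AIRE clones. PCDH19 was at -1.32 log2 in AIRE1 against AIRE2, and the difference was called in the direct test. PCDH19 was also 1.55 higher in AIRE2 than in AIRE-D312A. PCDH7 probe ILMN_1670383 was at -0.80 in AIRE1 against AIRE2 and at -0.67 in AIRE1 against AIRE-D312A, both called with and without the replicate block and neither with median centring.

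Some probes below the detection filter were detected in AIRE lines and on 0 arrays of NC. A second PCDH9 probe was detected on 3 arrays, 1 of each AIRE line. PCDHB18 was detected on 1 array, and a second PCDHGC3 probe on 1 array, both of AIRE1. Among the 1008 pairs of a probe below the filter and an array, 13 detections were counted. A detection p of 0.01 gives 10.1 over as many pairs of unselected probes without signal. The probes were picked for failing the filter, so the comparison does not decide whether the detections are signal.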

How the results depend on the processing

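Each result was recomputed under up to 21 alternatives. PCDH19 in AIRE2 against NC stayed called in all that have a test, with 0.95 to 1.66 log2 over all alternatives. It kept its sign in the authors' table, which has no test and was read with the offset of 16 added. The same held for PCDH7 probe ILMN_1670383 in AIRE1 against NC (-1.13 to -0.63, 20 alternatives). Against NC the replicate block called 7 probes for AIRE1 and 4 for AIRE2, and it called 2 for AIRE-D312A. Against AIRE-D312A it called 4 for AIRE1 and 2 for AIRE2, and it changed no protocadherin call beyond those printed beside the results. With 1 probe per gene the counts were 0 for AIRE1 against NC, 0 for AIRE1 against AIRE-D312A and 1 for AIRE1 against AIRE2. With median centring they were 0 for AIRE1 against AIRE-D312A and 1 for AIRE1 against AIRE2. Without the filter, AIRE2 against NC gave 2. Leaving out 1 array gave 1 to 2 calls for AIRE1 against NC, 2 without AIRE2 replicate 1 or AIRE2 replicate 2.

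The medians without a test moved more. For the clustered probes in AIRE1 the median was 0.013 with median centring and -0.024 without a filter. In AIRE2 it was -0.17 without the replicate 2 arrays and -0.23 in the authors' deposited table. In AIRE-D312A it was -0.075 and -0.23 under those settings, and -0.039 to 0.082 without 1 array. For the non-clustered probes in AIRE1 it was -0.046 with median centring, -0.070 without a filter, -0.15 with 1 probe per gene and -0.53 in the authors' table. In AIRE2 it was 0.072 with median centring and -0.20 in the authors' table, and in AIRE-D312A -0.40 in the authors' table and -0.20 to -0.10 without 1 array.

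PCDH17 in AIRE1 against NC stood at -0.0016 in the authors' deposited table, against 0.43 from the arrays. The cause was not tested. Median centring put the median of all tested probes at 0.13 in AIRE1 against NC, against -0.01 with quantile normalisation. It called 795 higher and 127 lower there, against 721 and 429. It called 617 and 90 in AIRE2 (against 831 and 508) and 232 and 35 in AIRE-D312A (against 350 and 164). The dim clustered probes lie near the detection limit, which bounds what these arrays show.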
